A study of Mus musculus with 6 samples.

Results

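Collagens and laminins are the main structural proteins of the extracellular matrix and of the basement membranes around brain vessels. Their genes were taken by symbol from the deposited count tables, as collagen chains (Col, a number, a, a number) and laminin alpha, beta and gamma chains (Lama, Lamb and Lamc with a number). Of 54134 table entries 55 carried such a symbol, and 51 were kept because they had at least 10 reads in at least 2 of the 6 libraries. These were 40 collagen and 11 laminin genes, and all 51 also passed the low-count filter of the test. Of the 4 that were not kept, Col2a1, the cartilage collagen, and Col10a1 had no library with 10 reads, while Col4a3 had 1 such library with 17 reads and Col6a6 had 1 with 11 reads. Just inside the limit were Col6a5, with 2 such libraries and at most 13 reads, and Col4a4, with 3 and at most 23 reads.

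The data are bulk RNA-seq of mouse prefrontal cortex, a total lysate of all its cells, at 6 to 8 weeks of age, with 2 mice and so 2 libraries per group. The first group were Shank3 +/ΔC mice, heterozygous for the ΔC allele of the synaptic scaffold gene Shank3, given GSK-LSD1, an inhibitor of the histone demethylase LSD1 (gene Kdm1a); they are called GSK-LSD1 libraries here. The second were Shank3 +/ΔC mice given vehicle, called Shank3 vehicle libraries, and the third were WT mice of a C57BL/6 x C3H cross given vehicle, called WT libraries. The strain background of the Shank3 +/ΔC mice was not given in the sources used here, and each group rests on 2 animals.

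Collagens are trimers of alpha chains. Fibrillar collagens such as types I and III form the fibres of connective tissue and, in the brain, are known mainly from the meninges and from fibroblasts around larger vessels, and FACIT collagens (fibril-associated collagens with interrupted triple helices) sit on such fibres. Type IV collagen and laminins, heterotrimers of an alpha, a beta and a gamma chain, build the basement membrane made by endothelial cells, mural cells and astrocytes, and some transmembrane collagens such as type XXV are made by neurons.

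Depth ran from 14133834 to 28646960 counted reads per library, so that 3 reads, taken as the floor of detection, equalled 0.105 to 0.212 CPM (read counts relative to library size, scaled by TMM, a correction for library composition). No kept gene was at 0 in any library. Slc17a7, the vesicular glutamate transporter of cortical excitatory neurons, was at 1435 and 1156 CPM in GSK-LSD1 libraries, 1423 and 1276 in Shank3 vehicle and 1923 and 1674 in WT libraries. The count over the whole Shank3 gene was 159 and 148 CPM in GSK-LSD1 libraries, 146 and 174 in Shank3 vehicle and 153 and 159.9 in WT libraries. Being a count over the whole gene, it does not check the ΔC allele. Libraries of a group differed by more than counting noise, with a chi-square per degree of freedom of 9.94 to 13.3, and no pair agreed within it.

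On the scale of CPM per kilobase of exon, averaged over the 6 libraries, the gene with the highest level was Col1a1 at 11.3, the alpha 1 chain of collagen I. It was followed by Col25a1 at 5.32, Col1a2 at 5.26, Lamc1 at 5.25, Col4a2 at 4.76, Lamb2 at 4.54, Col4a1 at 4.33, Col19a1 at 3.22, Lamb1 at 3.15 and Col6a1 at 2.63. By group mean Col1a1 led by far in Shank3 vehicle libraries and by little in WT libraries, where Col4a2 was next at 5.67. The WT lead came from library 1, with Col1a1 at 65.4 CPM there and at 12.4 CPM in WT library 2, where it did not lead. The group means of Col1a1 per length were 2.68 in GSK-LSD1, 25.2 in Shank3 vehicle and 5.93 in WT libraries. For Col25a1, a collagen of neurons, the same means were 6.21, 4.17 and 5.58, so that it stood above Col1a1 in the GSK-LSD1 group. The vessel basement membrane chains Lamc1, Col4a2, Lamb2 and Col4a1 lay close together. Their order changed between libraries, while Lamc1 stayed above Col4a1 in each. The lowest was Col6a5 at 0.0362.

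**Figure D1:**
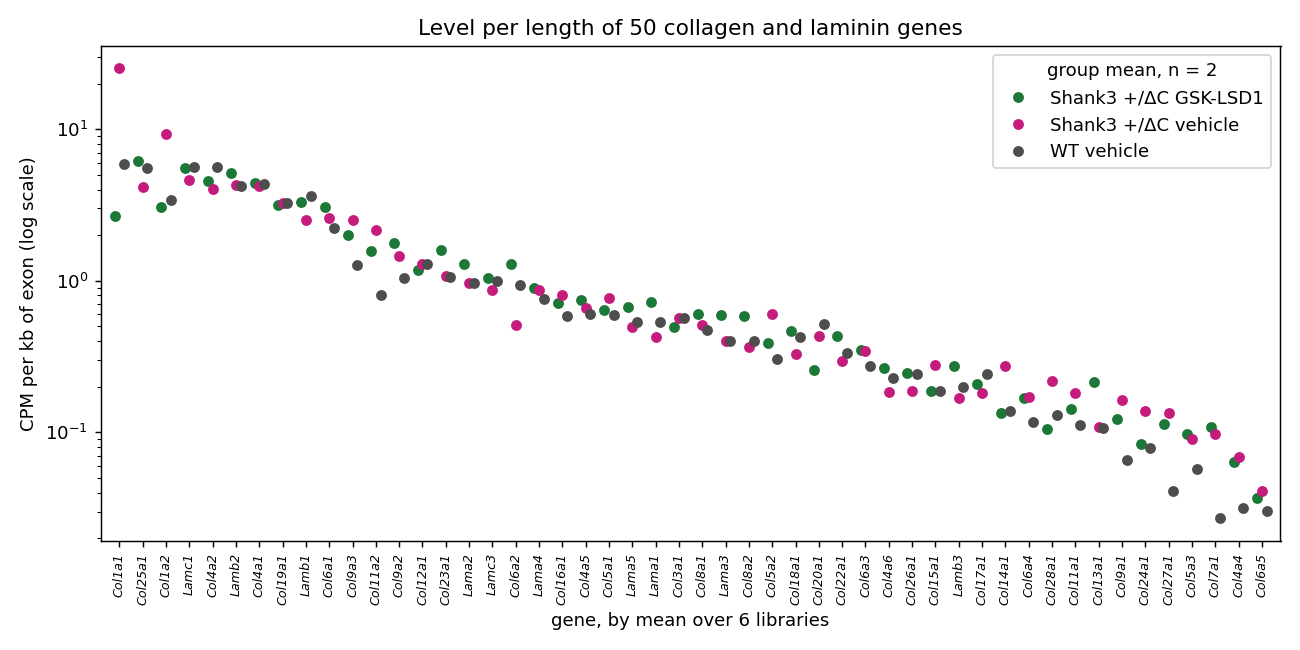
Level of 50 of the 51 collagen and laminin genes as CPM per kilobase of exon (log axis), with 1 point per group mean (n = 2 libraries) and genes ordered by their mean over 6 libraries. The group means of Col1a1 range from 2.68 to 25.2, while those of Lamc1, Col4a1 and Lamb2 nearly coincide.

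Against WT, edgeR called 2 collagens higher in Shank3 vehicle libraries, Col11a2 and Col9a3, and no collagen or laminin lower. These 2 of 51 stood beside 1.27% of all 18705 tested genes called in that comparison (0.278% called higher and 0.994% lower) by edgeR's quasi-likelihood test at an adjusted p under 0.05. At an adjusted p under 0.05 DESeq2 called 3, Col11a2 and Col9a3 higher and Col25a1 lower, and limma-voom called 3, Col11a2, Col1a1 and Col1a2, all higher. At an unadjusted p under 0.05, 11 of the 51 passed by edgeR, 6 higher and 5 lower, beside 14.0% of all tested genes (5.81% higher and 8.24% lower). The libraries of the groups did not overlap for 25 of the 51, 18 higher and 7 lower in Shank3 vehicle libraries, beside 46.2% of all tested genes (23.1% in each direction). Leaving out a library changed the count of 2 calls to 0 without Shank3 vehicle library 2 or WT library 1, to 1 without Shank3 vehicle library 1, to 4 without WT library 2 and to 5 without either GSK-LSD1 library. In this bulk tissue, fewer cells of a type and less RNA per cell cannot be told apart.

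In the comparison of GSK-LSD1 with Shank3 vehicle libraries no collagen or laminin passed edgeR's test, where 0.107% of all tested genes were called (0.102% higher and 0.00535% lower). At an unadjusted p under 0.05, 9 of 51 passed by edgeR, 6 higher and 3 lower, beside 5.7% of all tested genes (3.18% higher and 2.52% lower). DESeq2 called 2 (Col25a1 and Col6a2 higher) and limma-voom 1 (Col1a1 lower) at an adjusted p under 0.05. Groups were apart for 24 of the 51, 16 higher and 8 lower in GSK-LSD1 libraries, beside 33.6% of all tested genes (17.0% and 16.6%). By edgeR 1 was called without GSK-LSD1 library 2 and 2 without either WT library. In GSK-LSD1 against WT libraries edgeR again called none, where 2.62% of all tested genes were called (0.636% higher and 1.99% lower), with 10 at an unadjusted p under 0.05 (8 higher and 2 lower, beside 15.7% of all tested genes, 7.11% higher and 8.62% lower). There DESeq2 called 1 (Col11a2 higher) and limma-voom 0, and groups were apart for 16 of the 51 (14 higher, 2 lower) beside 45.8% of all tested genes (23.5% and 22.4%). By edgeR 2 were called there without GSK-LSD1 library 1 and 1 without either Shank3 vehicle library. The median log2 fold change of the 51 genes was 0.09 for Shank3 vehicle over WT, 0.14 for GSK-LSD1 over Shank3 vehicle and 0.29 for GSK-LSD1 over WT, where that of all tested genes was 0.02, 0.00 and 0.02. The first of these medians was 0.00 without Shank3 vehicle library 2 and 0.27 without Shank3 vehicle library 1. The second was 0.28 without Shank3 vehicle library 2, 0.05 without Shank3 vehicle library 1 and 0.08 without GSK-LSD1 library 1, and the third was 0.14 without GSK-LSD1 library 1. The first 2 of these comparisons share the Shank3 vehicle libraries, so a value high or low in those libraries enters both with opposite sign.

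**Figure D2:**
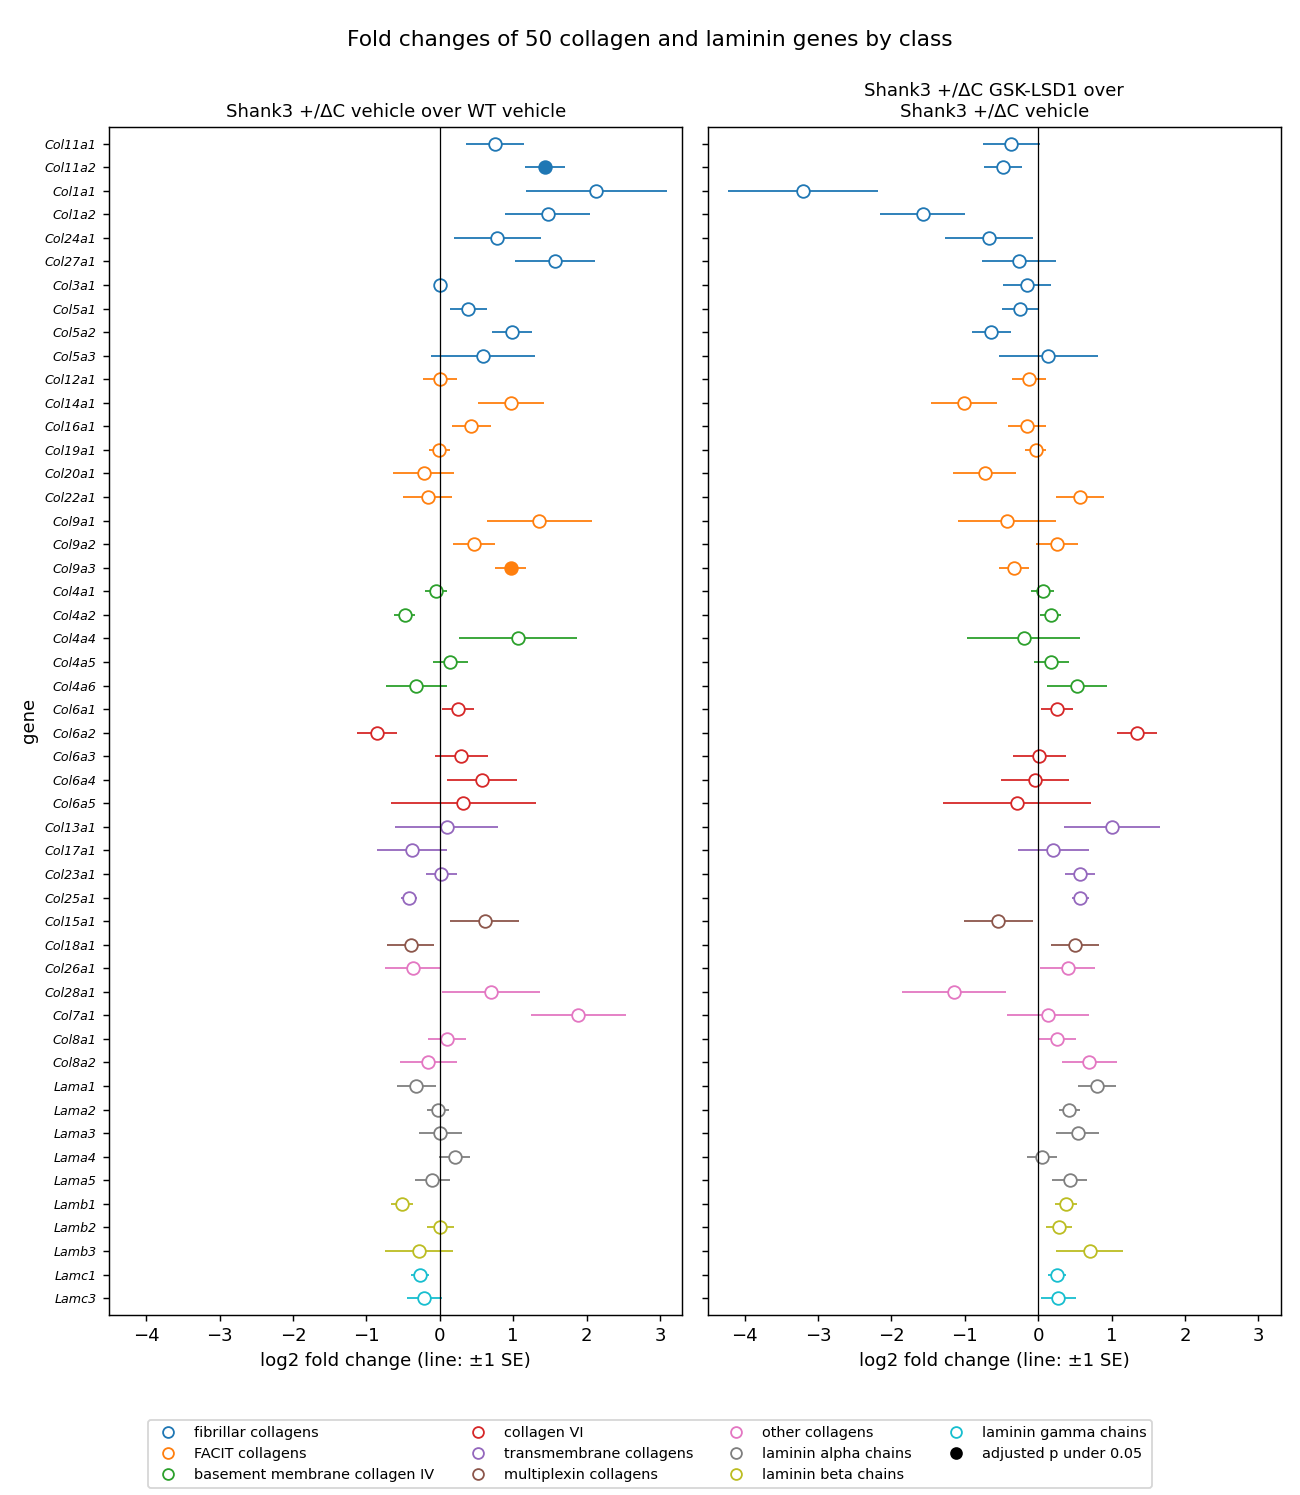
Log2 fold change (line: ±1 SE) of 50 of the 51 collagen and laminin genes, by class, for Shank3 vehicle over WT on the left and GSK-LSD1 over Shank3 vehicle on the right; filled points have an adjusted p under 0.05 and Col3a1 on the left carries no line, its value being 0.00. Only Col11a2 and Col9a3 on the left are filled, and the fibrillar collagens other than Col3a1 lie right of 0 on the left and all but 1 left of 0 on the right, while Lamb1 and Lamc1 lie left of 0 on the left and right of 0 on the right.

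Of 11 fibrillar genes 10 were tested, and in Shank3 vehicle over WT 9 had a positive log2 fold change and Col3a1 one of 0.00, with a median of 0.88. Of these 10, 1 passed the test, beside 0.278% of all tested genes called higher. For 8 both Shank3 vehicle libraries lay above both WT libraries, beside 23.1% of all tested genes. In GSK-LSD1 over Shank3 vehicle 9 of 10 were negative, with a median of -0.43, and none passed; without Shank3 vehicle library 2 the median was -0.13.

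Col1a1 had the largest fold difference of the fibrillar class in both of these comparisons. The gene (chr11:94936224-94953042, GRCm38) had 22.2 and 12.9 CPM in GSK-LSD1 libraries, 133 and 197 in Shank3 vehicle and 65.4 and 12.4 in WT libraries. Both Shank3 vehicle libraries were the highest, both GSK-LSD1 libraries were low, and the WT libraries lay far apart, library 2 at the GSK-LSD1 level. Col1a2, its partner chain in the same trimer, had 48.7 and 28.1 CPM in GSK-LSD1 libraries, 91.0 and 139.9 in Shank3 vehicle and 57.8 and 26.9 in WT libraries, in the same order of libraries. Neither chain passed edgeR's test for Shank3 vehicle over WT, with Col1a1 at log2 fold change 2.13 ± 0.96 SE, edgeR adjusted p = 0.481 and Col1a2 at log2 fold change 1.47 ± 0.58 SE, edgeR adjusted p = 0.421. For GSK-LSD1 over Shank3 vehicle, Col1a1 was at log2 fold change -3.21 ± 1.02 SE, edgeR adjusted p = 0.873 (unadjusted p = 0.0461) and Col1a2 at log2 fold change -1.57 ± 0.58 SE, edgeR adjusted p = 0.917. The call rested on the test: limma-voom called Col1a1 in both comparisons (adjusted p = 0.0349 for Shank3 vehicle over WT and 0.0319 for GSK-LSD1 over Shank3 vehicle) and Col1a2 in the first (adjusted p = 0.0364), while DESeq2 called neither chain (adjusted p of Col1a1 0.213 and 0.156). Without WT library 1 the log2 fold change of Col1a1 in Shank3 vehicle over WT was 3.73 with adjusted p = 0.573 by edgeR, and without WT library 2 it was 1.33 with adjusted p = 0.411. For Col1a2 the same values were 2.09 with adjusted p = 0.731 and 0.99 with adjusted p = 0.597.

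Col3a1, the collagen III chain that fibroblasts usually make together with collagen I, had another pattern, with 6.95 and 2.79 CPM in GSK-LSD1 libraries, 5.01 and 6.12 in Shank3 vehicle and 5.27 and 5.82 in WT libraries. Its groups overlapped in all 3 comparisons, with a log2 fold change of 0.00 for Shank3 vehicle over WT and log2 fold change -0.15 ± 0.33 SE for GSK-LSD1 over Shank3 vehicle (edgeR adjusted p = 0.999). The sign of the second rested on 1 library, at -0.995 (adjusted p = 0.429) without GSK-LSD1 library 1 and at 0.33 with adjusted p = 0.906 without GSK-LSD1 library 2. Serpinh1, the collagen chaperone Hsp47, had 23.5 and 17.0 CPM in GSK-LSD1 libraries, 17.3 and 26.4 in Shank3 vehicle and 21.4 and 18.2 in WT libraries, and its groups also overlapped in all 3 comparisons.

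**Figure D3:**
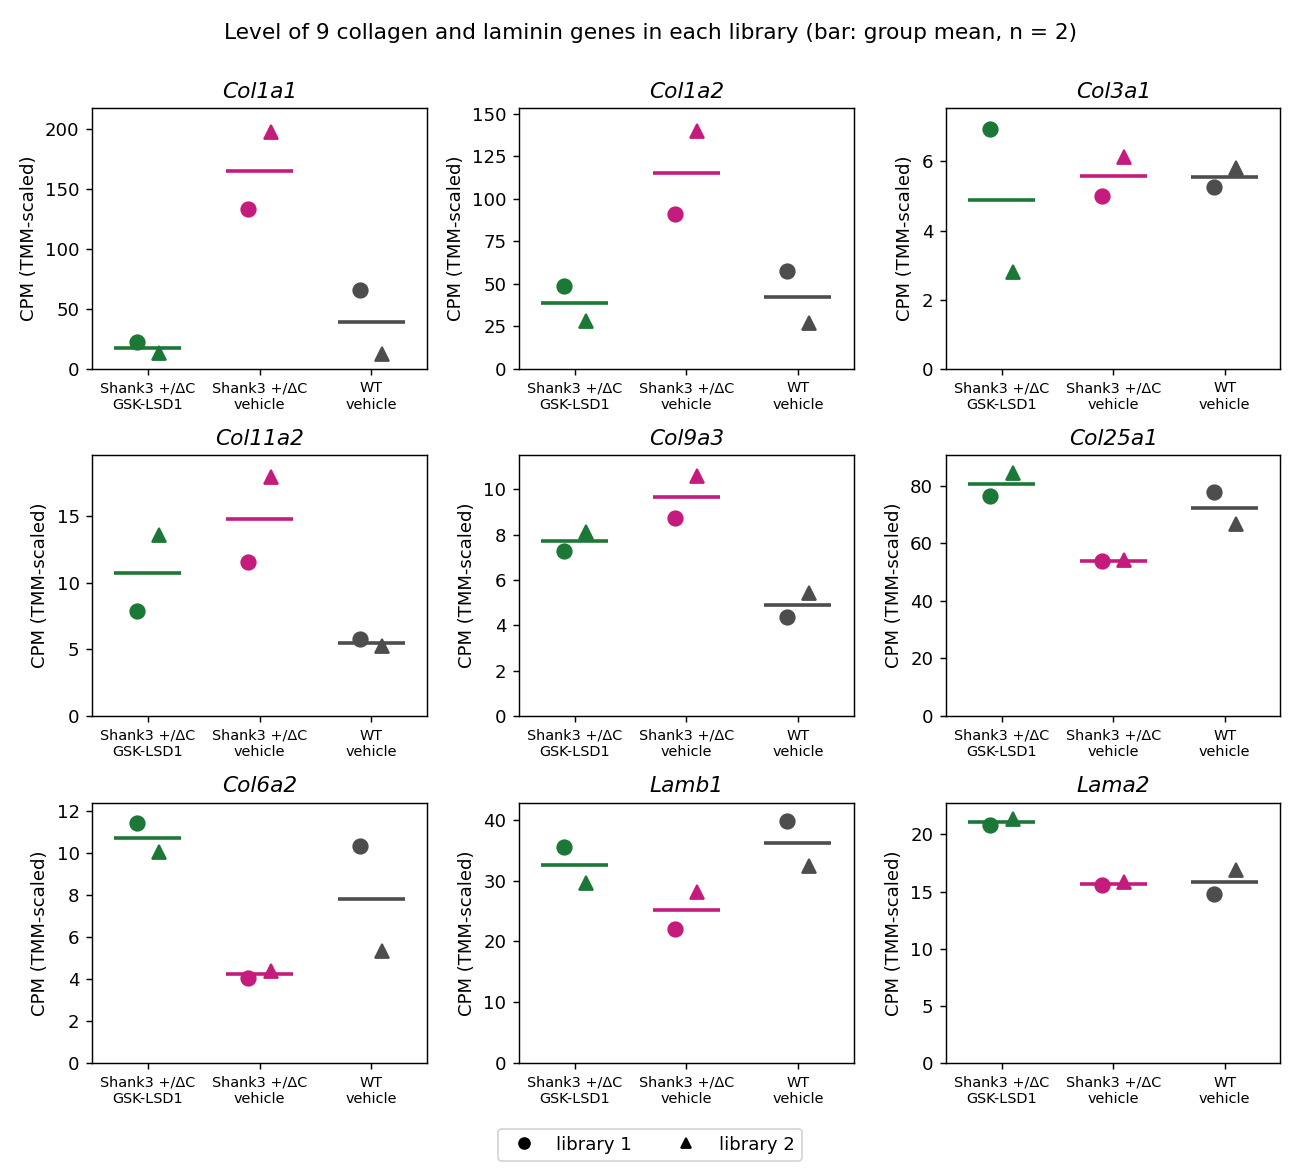
CPM of 9 collagen and laminin genes in each library (circles: library 1, triangles: library 2, bars: group mean, n = 2, axes from 0), with GSK-LSD1, Shank3 vehicle and WT from left to right. Col1a1 and Col1a2 are highest in both Shank3 vehicle libraries and Col3a1 is not, Col11a2 and Col9a3 are lowest in WT, and Col25a1 and Col6a2 are lowest in Shank3 vehicle libraries.

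The proportion of the partner chains of collagen I differed between libraries. The ratio of Col1a1 to Col1a2 reads per kilobase of exon was 0.863 and 0.873 in GSK-LSD1 libraries, 2.77 and 2.67 in Shank3 vehicle and 2.14 and 0.874 in WT libraries. Both GSK-LSD1 libraries and WT library 2 had nearly the same ratio, and both Shank3 vehicle libraries and WT library 1 a higher one. The heterotrimer of collagen I holds more alpha 1 than alpha 2 chains. With 2 libraries per group an exact two-sided permutation test cannot give a p below 0.333, so no test of the ratio is given. For collagen IV the ratio of Col4a1 to Col4a2 was 1.10 and 0.819 in GSK-LSD1 libraries, 1.03 and 1.05 in Shank3 vehicle and 0.655 and 0.924 in WT libraries, and the GSK-LSD1 and Shank3 vehicle values overlapped. For collagen VI the ratio of Col6a1 to Col6a2 was 2.84 and 1.88 in GSK-LSD1 libraries, 5.25 and 5.06 in Shank3 vehicle and 1.90 and 3.25 in WT libraries. It stood highest in both Shank3 vehicle libraries.

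**Figure D4:**
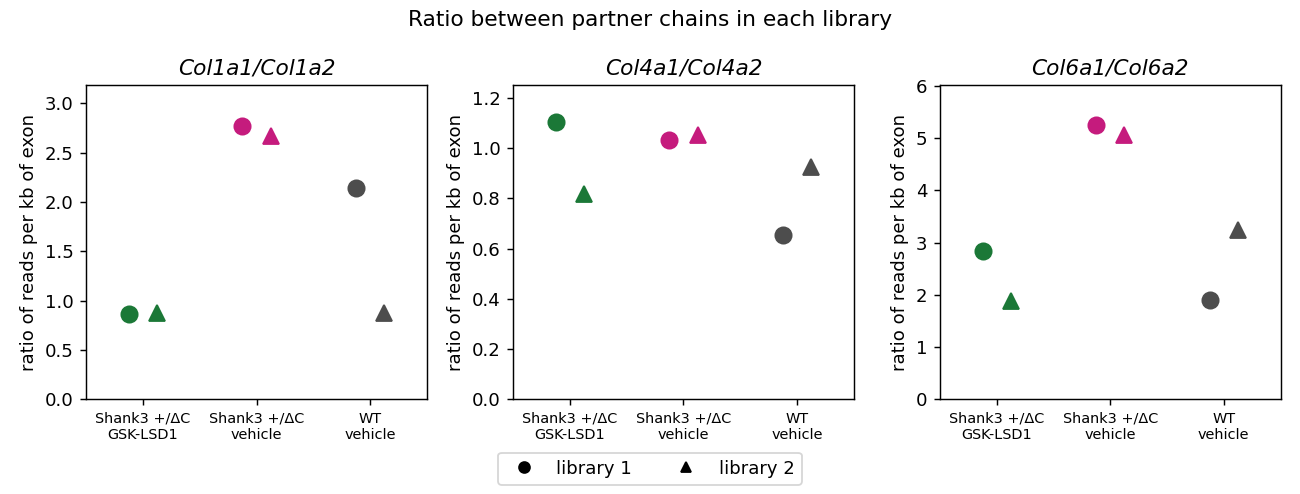
Ratio of reads per kilobase of exon between partner chains of collagens I, IV and VI in each library (circles: library 1, triangles: library 2, axes from 0). The Col1a1/Col1a2 ratio is near 0.87 in 3 libraries and above 2 in both Shank3 vehicle libraries and WT library 1, and the Col6a1/Col6a2 ratio is highest in both Shank3 vehicle libraries.

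Of the 51 genes 38 had a promoter window in RefSeq (42 windows, GRCm38.p6), of which the 250 bases before the start were searched; Col1a1 and Col9a3 had none. Windows of Col1a2, Col3a1 and Col11a2 are shown, as the collagen I chain that stood high in Shank3 vehicle libraries, a fibrillar chain with overlapping groups and the fibrillar chain that passed the test. Capitals mark matches on either strand to CCAAT (reverse ATTGG), to the GC box GGGCGG (reverse CCGCCC) and to TATAAA (reverse TTTATA), which do not overlap one another here. All 3 are on the plus strand: Col1a2 at chr6:4505368-4505617, Col3a1 at chr1:45311288-45311537 and Col11a2 at chr17:34038888-34039137.
Col1a2: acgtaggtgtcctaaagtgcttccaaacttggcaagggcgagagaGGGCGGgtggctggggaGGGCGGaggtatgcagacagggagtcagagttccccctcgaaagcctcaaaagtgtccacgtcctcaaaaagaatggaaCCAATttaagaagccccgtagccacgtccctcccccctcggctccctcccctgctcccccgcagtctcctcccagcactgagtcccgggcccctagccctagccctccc
Col3a1: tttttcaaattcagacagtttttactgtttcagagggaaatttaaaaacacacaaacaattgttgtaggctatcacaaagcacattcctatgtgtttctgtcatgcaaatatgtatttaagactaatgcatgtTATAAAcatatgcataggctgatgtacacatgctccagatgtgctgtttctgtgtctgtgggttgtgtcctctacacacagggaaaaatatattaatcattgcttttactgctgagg
Col11a2: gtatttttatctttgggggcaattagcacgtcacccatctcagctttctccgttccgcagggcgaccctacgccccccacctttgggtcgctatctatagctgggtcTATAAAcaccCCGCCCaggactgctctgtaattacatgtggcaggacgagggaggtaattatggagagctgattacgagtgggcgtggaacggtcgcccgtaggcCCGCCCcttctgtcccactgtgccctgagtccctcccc
The Col1a2 window held 1 CCAAT and 2 GC box matches, the Col3a1 window 1 TATAAA match, and the Col11a2 window 2 GC box matches and 1 TATAAA match. Of all 32851 windows of this length 33.8% held a CCAAT match, 32.7% a GC box match and 12.4% a TATAAA match, beside 33.3%, 54.8% and 9.52% of the 42 windows of collagens and laminins. A match is a description of the letters and not of a bound factor.

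Col11a2 (chr17:34039437-34066685) encodes the alpha 2 chain of collagen XI, a minor fibrillar collagen that forms mixed fibrils with the major ones. It had 7.89 and 13.6 CPM in GSK-LSD1 libraries, 11.6 and 18.0 in Shank3 vehicle and 5.75 and 5.28 in WT libraries. Every Shank3 +/ΔC library lay above both WT libraries, and the spread within each Shank3 +/ΔC group was wide. It rose in Shank3 vehicle libraries (log2 fold change 1.43 ± 0.27 SE, edgeR adjusted p = 0.0322), a call that DESeq2 (adjusted p = 0.000273) and limma-voom (adjusted p = 0.0462) also made. In GSK-LSD1 over WT it was at log2 fold change 0.95 ± 0.28 SE, edgeR adjusted p = 0.107, and in GSK-LSD1 over Shank3 vehicle at log2 fold change -0.48 ± 0.26 SE, edgeR adjusted p = 0.929. The call in Shank3 vehicle over WT was lost without Shank3 vehicle library 2 (1.08 with adjusted p = 0.144), without WT library 1 (1.48 with adjusted p = 0.476) and without WT library 2 (1.35 with adjusted p = 0.159). In GSK-LSD1 over WT it was gained without GSK-LSD1 library 1 (1.30 with adjusted p = 0.00820), without Shank3 vehicle library 1 (0.94 with adjusted p = 0.0490) and without Shank3 vehicle library 2 (0.94 with adjusted p = 0.0376).

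Col9a3 (chr2:180597790-180622189) encodes the alpha 3 chain of collagen IX, a FACIT collagen that covers collagen II and XI fibrils in cartilage. It had 7.29 and 8.11 CPM in GSK-LSD1 libraries, 8.73 and 10.6 in Shank3 vehicle and 4.38 and 5.42 in WT libraries, with no overlap between any 2 groups. It rose in Shank3 vehicle libraries (log2 fold change 0.96 ± 0.21 SE, edgeR adjusted p = 0.0345); DESeq2 gave an adjusted p of 0.0126 and limma-voom 0.0573. In GSK-LSD1 over WT it was at log2 fold change 0.63 ± 0.22 SE, edgeR adjusted p = 0.143, and in GSK-LSD1 over Shank3 vehicle at log2 fold change -0.33 ± 0.21 SE, edgeR adjusted p = 0.967. Its call in Shank3 vehicle over WT was lost without Shank3 vehicle library 1 (1.09 with adjusted p = 0.0881), without Shank3 vehicle library 2 (0.82 with adjusted p = 0.267) and without WT library 1 (0.83 with adjusted p = 0.476). Its annotation shares 234 bases with Tcfl5 on the other strand, and because no source names the strand setting of the counting, reads of these bases cannot be assigned. Col9a2, the alpha 2 chain of the same collagen, had 3.90 and 7.09 CPM in GSK-LSD1 libraries, 4.41 and 4.63 in Shank3 vehicle and 2.94 and 3.54 in WT libraries. It did not pass in Shank3 vehicle over WT (log2 fold change 0.46 ± 0.29 SE, edgeR adjusted p = 0.514) or in GSK-LSD1 over WT (log2 fold change 0.72 ± 0.29 SE, edgeR adjusted p = 0.225). Without GSK-LSD1 library 1 the second comparison gave 1.10 with adjusted p = 0.0473.

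The 12 oligodendrocyte markers, all tested and none at 0, summed to 2504 and 5873 CPM in GSK-LSD1 libraries, 6178 and 6230.5 in Shank3 vehicle and 2711 and 2462 in WT libraries. The libraries with high sums were the 3 in which Col11a2 was highest, and also the 3 in which Col9a3 was highest. GSK-LSD1 library 1 had a sum near those of the WT libraries. Its Col11a2, at 7.89 CPM, was above both WT libraries (5.75 and 5.28). Its Col9a3, at 7.29 CPM, was also above both (4.38 and 5.42). None of the 12 markers passed edgeR's test in any of the 3 comparisons, although in Shank3 vehicle over WT all 12 were positive. There 2 had an unadjusted p under 0.05, beside 14% of all tested genes, with 0 in the other comparisons. The 7 oligodendrocyte precursor markers, all tested, summed to 243 and 311 CPM in GSK-LSD1 libraries, 262 and 314 in Shank3 vehicle and 189.7 and 209 in WT libraries. In Shank3 vehicle over WT 6 of these 7 were positive and 1, Gpr17, rose by edgeR. The 10 astrocyte markers, all tested, summed to 5398 and 5453 CPM in GSK-LSD1 libraries, 5407 and 5615 in Shank3 vehicle and 3960.1 and 4883 in WT libraries. All 10 were positive in Shank3 vehicle over WT, where edgeR called 3 higher (Aqp4, Gja1 and S100b), and in GSK-LSD1 over WT, where it called 4 higher (Aqp4, Gja1, Aldh1l1 and Aldoc). None of the precursor or astrocyte markers passed in GSK-LSD1 over Shank3 vehicle, with 1 and 0 at an unadjusted p under 0.05, beside 5.7% of all tested genes. The 10 choroid plexus markers, 6 of them tested, summed to 10.4 and 24.0 CPM in GSK-LSD1 libraries. Their sums were 6.99 and 12.9 CPM in Shank3 vehicle and 5.34 and 7.05 in WT libraries. All 6 were positive in each comparison, and edgeR called 2 of them, both higher, in GSK-LSD1 over WT only. Of all tested genes edgeR called 0.278% higher in Shank3 vehicle over WT and 0.636% higher in GSK-LSD1 over WT. The part of oligodendrocytes, their precursors, astrocytes and choroid plexus in the 2 collagen calls was not tested.

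Col5a2, the alpha 2 chain of collagen V, which sets the diameter of collagen I fibrils, had 3.48 and 4.02 CPM in GSK-LSD1 libraries, 4.73 and 6.89 in Shank3 vehicle and 2.60 and 3.22 in WT libraries. Its Shank3 vehicle libraries lay above the other 4 libraries, without passing the test (log2 fold change 0.98 ± 0.27 SE, edgeR adjusted p = 0.0817 for Shank3 vehicle over WT, log2 fold change -0.64 ± 0.27 SE, edgeR adjusted p = 0.824 for GSK-LSD1 over Shank3 vehicle). Without either GSK-LSD1 library in the fit the first of these passed (0.97 with adjusted p = 0.0493 without library 1 and 0.97 with adjusted p = 0.0475 without library 2), while without Shank3 vehicle library 2 it was 0.69 with adjusted p = 0.587. Col27a1, a collagen of cartilage, had 1.31 and 1.64 CPM in GSK-LSD1 libraries, 1.42 and 2.09 in Shank3 vehicle and 0.205 and 0.867 in WT libraries. Both WT libraries were lowest (log2 fold change 1.57 ± 0.55 SE, edgeR adjusted p = 0.184 for Shank3 vehicle over WT). WT library 1 held 3 reads of this gene, which is the floor of detection, and WT library 2 held 24. The log2 fold change rested on these libraries: without WT library 2 it was 3.05, and without WT library 1 it was 1.01. Of the remaining 4 tested chains, Col11a1, Col24a1, Col5a1 and Col5a3, none passed in any comparison, with log2 fold changes from 0.39 for Col5a1 to 0.79 for Col24a1 in Shank3 vehicle over WT.

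Among the 9 FACIT collagens 6 were positive and 3 negative in Shank3 vehicle over WT, with a median of 0.43. Col9a3 was the 1 that passed, beside 0.278% of all tested genes called higher. Col19a1, the FACIT chain with the highest level per length, made by some interneurons, had 19.7 and 24.1 CPM in GSK-LSD1 libraries, 23.0 and 21.6 in Shank3 vehicle and 21.3 and 23.5 in WT libraries, and its groups overlapped. Col12a1, which decorates collagen I fibrils, had 22.3 and 13.4 CPM in GSK-LSD1 libraries, 22.5 and 16.9 in Shank3 vehicle and 22.0 and 17.5 in WT libraries. Library 1 was above library 2 in each group, and the groups overlapped in every comparison. Col14a1, another collagen of that kind, had 1.06 and 0.818 CPM in GSK-LSD1 libraries, 2.16 and 1.68 in Shank3 vehicle and 0.890 and 1.05 in WT libraries. It was highest in both Shank3 vehicle libraries (log2 fold change 0.97 ± 0.45 SE, edgeR adjusted p = 0.342 over WT and log2 fold change -1.01 ± 0.45 SE, edgeR adjusted p = 0.851 for GSK-LSD1 over Shank3 vehicle). Col20a1 had 1.44 and 1.23 CPM in GSK-LSD1 libraries, 1.61 and 2.86 in Shank3 vehicle and 3.63 and 1.73 in WT libraries. It was lowest in both GSK-LSD1 libraries (log2 fold change -0.95 ± 0.44 SE, edgeR adjusted p = 0.299 against WT). The other FACIT chains, Col16a1, Col22a1 and Col9a1, did not pass, with log2 fold changes of 0.43, -0.17 and 1.35 in Shank3 vehicle over WT.

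None of the 5 tested collagen IV chains passed in any comparison. Col4a1 and Col4a2, the chains of the ubiquitous collagen IV trimer, are transcribed away from each other on chromosome 8, with RefSeq starts at 11312826 on the minus and 11312805 on the plus strand. Col4a1 had 37.4 and 28.0 CPM in GSK-LSD1 libraries, 27.8 and 35.4 in Shank3 vehicle and 31.1 and 34.3 in WT libraries, with overlapping groups. Col4a2 had 30.1 and 30.3 CPM in GSK-LSD1 libraries, 23.9 and 29.7 in Shank3 vehicle and 42.1 and 32.9 in WT libraries. Its Shank3 vehicle libraries lay below both WT libraries (log2 fold change -0.48 ± 0.14 SE, edgeR adjusted p = 0.108), and the GSK-LSD1 libraries lay between them (log2 fold change -0.31 ± 0.14 SE, edgeR adjusted p = 0.305 against WT). Without WT library 2 the first comparison gave -0.66 with adjusted p = 0.0388, and without WT library 1 it gave -0.30 with adjusted p = 0.793. Of the minor collagen IV chains, Col4a5, Col4a6 and Col4a4 did not pass either, at mean levels per length of 0.674, 0.227 and 0.0545.

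Of the 11 laminins 7 were negative in Shank3 vehicle over WT (median -0.10) and 10 of 11 positive in GSK-LSD1 over Shank3 vehicle (median 0.38), and none passed in any comparison. Leaving out single libraries moved these medians, to 0.09 without Shank3 vehicle library 1, -0.39 without Shank3 vehicle library 2 and 0.02 without WT library 2 in the first comparison. In the second they were 0.15 without Shank3 vehicle library 1, 0.56 without Shank3 vehicle library 2 and 0.24 without GSK-LSD1 library 1. Lamb1, the beta 1 chain, had 35.6 and 29.6 CPM in GSK-LSD1 libraries, 22.1 and 28.2 in Shank3 vehicle and 39.8 and 32.4 in WT libraries. Both Shank3 vehicle libraries were the lowest, and only Shank3 vehicle library 2 was close to GSK-LSD1 library 2 (log2 fold change -0.52 ± 0.15 SE, edgeR adjusted p = 0.0975 for Shank3 vehicle over WT and log2 fold change 0.38 ± 0.15 SE, edgeR adjusted p = 0.782 for GSK-LSD1 over Shank3 vehicle). Without either GSK-LSD1 library in the fit the first comparison passed (-0.52 with adjusted p = 0.0446 without library 1 and -0.52 with adjusted p = 0.0402 without library 2), while without WT library 1 it was -0.38 with adjusted p = 0.697. Lamc1, the gamma 1 chain shared by most laminin trimers, had 47.7 and 43.5 CPM in GSK-LSD1 libraries, 35.3 and 41.4 in Shank3 vehicle and 50.9 and 41.8 in WT libraries. Both Shank3 vehicle libraries were again the lowest (log2 fold change -0.27 ± 0.13 SE, edgeR adjusted p = 0.345 over WT). Lamb2, the beta 2 chain of vessels and synapses, had 35.2 and 27.4 CPM in GSK-LSD1 libraries, 21.2 and 30.5 in Shank3 vehicle and 22.9 and 28.4 in WT libraries. Its groups overlapped in every comparison.

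The alpha chains, which distinguish the laminins of different cells, were all positive in both comparisons of the GSK-LSD1 libraries. Lama2, the alpha chain of astrocytes and perivascular cells, had 20.8 and 21.3 CPM in GSK-LSD1 libraries, 15.5 and 15.8 in Shank3 vehicle and 14.8 and 16.9 in WT libraries. Both GSK-LSD1 libraries lay above all others, and the difference did not pass (log2 fold change 0.43 ± 0.15 SE, edgeR adjusted p = 0.674 over Shank3 vehicle and log2 fold change 0.40 ± 0.15 SE, edgeR adjusted p = 0.174 over WT). Lama1, an alpha chain of the pial basement membrane, had 8.86 and 5.25 CPM in GSK-LSD1 libraries, 3.68 and 4.53 in Shank3 vehicle and 5.61 and 4.73 in WT libraries. The highest value was in GSK-LSD1 library 1 (log2 fold change 0.80 ± 0.26 SE, edgeR adjusted p = 0.584 over Shank3 vehicle). Lama4 and Lama5, the alpha chains of endothelial basement membrane, had log2 fold changes of 0.05 and 0.43 for GSK-LSD1 over Shank3 vehicle. Lama3 and Lamb3, chains known from epithelia, did not pass. Lamc3, a gamma chain of retina and cortex basement membrane, did not pass either.

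Among the 5 tested collagen VI chains, which form beaded filaments next to basement membranes, Col6a2 had the largest fold difference in GSK-LSD1 over Shank3 vehicle. It had 11.4 and 10.02 CPM in GSK-LSD1 libraries, 4.04 and 4.40 in Shank3 vehicle and 10.3 and 5.31 in WT libraries. Both Shank3 vehicle libraries were the lowest, WT library 2 was close to them, and WT library 1 was at the GSK-LSD1 level. It did not pass in Shank3 vehicle over WT (log2 fold change -0.85 ± 0.27 SE, edgeR adjusted p = 0.149) or in GSK-LSD1 over Shank3 vehicle (log2 fold change 1.35 ± 0.27 SE, edgeR adjusted p = 0.0883), where DESeq2 gave an adjusted p of 0.0118 and limma-voom 0.136. By edgeR the second comparison passed without GSK-LSD1 library 2 (1.44 with adjusted p = 0.0436), without WT library 1 (1.35 with adjusted p = 0.00941) and without WT library 2 (1.35 with adjusted p = 0.00767), and the first passed without WT library 2 (-1.30 with adjusted p = 0.0120). Without WT library 1 the first was -0.34 with adjusted p = 0.906. Col6a1, its partner chain, had 17.0 and 9.88 CPM in GSK-LSD1 libraries, 11.2 and 11.7 in Shank3 vehicle and 10.3 and 9.07 in WT libraries. It was highest in GSK-LSD1 library 1 (log2 fold change 0.50 ± 0.22 SE, edgeR adjusted p = 0.278 for GSK-LSD1 over WT). Col6a3, the third chain of that trimer, had 3.69 and 4.70 CPM in GSK-LSD1 libraries, 2.39 and 5.85 in Shank3 vehicle and 2.74 and 3.87 in WT libraries. Its groups overlapped, with a gap between the Shank3 vehicle libraries. Col6a4 and Col6a5 did not pass in any comparison.

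Col25a1 (chr3:130131501-130599877), a transmembrane collagen of neurons also known as CLAC-P, had the second highest level per length. It had 76.5 and 84.4 CPM in GSK-LSD1 libraries, 53.8 and 54.1 in Shank3 vehicle and 77.8 and 66.6 in WT libraries. The Shank3 vehicle libraries were the lowest and close to each other, and the GSK-LSD1 and WT libraries overlapped. It did not pass in Shank3 vehicle over WT (log2 fold change -0.42 ± 0.11 SE, edgeR adjusted p = 0.0704; DESeq2 adjusted p = 0.0302) or in GSK-LSD1 over Shank3 vehicle (log2 fold change 0.57 ± 0.11 SE, edgeR adjusted p = 0.0535), where DESeq2 gave an adjusted p of 0.00697 and limma-voom 0.0987. Single libraries decided its side of the threshold. By edgeR the first comparison passed without GSK-LSD1 library 1 (-0.42 with adjusted p = 0.0380), without GSK-LSD1 library 2 (-0.42 with adjusted p = 0.0365) and without WT library 2 (-0.53 with adjusted p = 0.0385), and the second without WT library 1 (0.58 with adjusted p = 0.0323) and without WT library 2 (0.58 with adjusted p = 0.0354). Without WT library 1 the first was -0.31 with adjusted p = 0.651. The 8 excitatory neuron markers, all tested, summed to 3660 and 3167 CPM in GSK-LSD1 libraries, 3577 and 3639 in Shank3 vehicle and 4382 and 4147 in WT libraries. The 9 inhibitory neuron markers summed to 587 and 667 CPM in GSK-LSD1 libraries, 578 and 671 in Shank3 vehicle and 589.9 and 642 in WT libraries. Both Shank3 vehicle libraries were below WT in the excitatory sum and close to GSK-LSD1 library 1. The part of neuron content in the Col25a1 values was not tested.

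Of the other transmembrane collagens, Col23a1 had 8.52 and 9.88 CPM in GSK-LSD1 libraries, 6.16 and 6.21 in Shank3 vehicle and 5.68 and 6.43 in WT libraries. Both GSK-LSD1 libraries were above the other 4, without passing the test (log2 fold change 0.57 ± 0.20 SE, edgeR adjusted p = 0.713 over Shank3 vehicle and log2 fold change 0.59 ± 0.20 SE, edgeR adjusted p = 0.150 over WT). Col13a1 and Col17a1, the hemidesmosome collagen, did not exceed 1.71 CPM in any library and did not pass. The multiplexins Col15a1 and Col18a1, basement membrane proteoglycans whose C-terminal fragments include endostatin, did not pass. Col15a1 had 1.44 and 0.954 CPM in GSK-LSD1 libraries, 1.24 and 2.31 in Shank3 vehicle and 1.44 and 0.939 in WT libraries, its highest value in Shank3 vehicle library 2. Col7a1, the anchoring fibril collagen, was low throughout, with 25 and 17 reads in GSK-LSD1 libraries, 22 and 22 in Shank3 vehicle and 5 and 6 in WT libraries. Scaled for depth, these were 1.06 and 1.16 CPM in GSK-LSD1 libraries, 1.01 and 0.998 in Shank3 vehicle and 0.342 and 0.217 in WT libraries. Both WT libraries were the lowest (log2 fold change 1.89 ± 0.65 SE, edgeR adjusted p = 0.174 for Shank3 vehicle over WT and log2 fold change 2.02 ± 0.65 SE, edgeR adjusted p = 0.116 for GSK-LSD1 over WT). The short-chain network collagens Col8a1 and Col8a2, known from the eye and from vessel walls, and Col26a1 and Col28a1 did not pass either. Col8a2, the member of these 4 with the smallest p in GSK-LSD1 over Shank3 vehicle, had 3.22 and 2.04 CPM in GSK-LSD1 libraries, 1.61 and 1.68 in Shank3 vehicle and 1.37 and 2.20 in WT libraries (log2 fold change 0.70 ± 0.38 SE, edgeR adjusted p = 0.926).

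The libraries of a group were also set against each other, a comparison of 1 mouse with 1 mouse that has no test. In the GSK-LSD1 group 5 of 51 genes differed over 2-fold between its libraries (Col13a1, Col28a1, Col3a1, Col4a4 and Col6a5), beside 8.05% of all tested genes. In the Shank3 vehicle group 3 did (Col4a4, Col6a3 and Col6a5), beside 5.8%, and in the WT group 5 did (Col1a1, Col1a2, Col20a1, Col27a1 and Col6a5), beside 6.5%. Among the 43 genes with a mean of at least 1 CPM these counts were 1 in the GSK-LSD1 group (Col3a1), beside 3.16% of the 15558 tested genes with that mean, 1 in the Shank3 vehicle group (Col6a3), beside 1.93%, and 4 in the WT group (Col1a1, Col1a2, Col20a1 and Col27a1), beside 1.91%. The median absolute log2 difference between libraries over the 51 genes was 0.39 in the GSK-LSD1, 0.41 in the Shank3 vehicle and 0.31 in the WT group, where that of all tested genes was 0.20, 0.17 and 0.19. In the Shank3 vehicle group 42 of the 51 were higher in library 2. The median log2 difference of library 1 minus library 2 was -0.32 there, beside -0.004 over all tested genes. In the GSK-LSD1 group 30 of 51 were higher in library 1, with a median of 0.13 beside -0.006. In the WT group 24 were higher in library 1 and 27 in library 2, with a median of -0.06 beside -0.0007.

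Of 14 meningeal fibroblast markers 13 were tested and none was at 0 in any library. They summed to 90.3 and 41.2 CPM in GSK-LSD1 libraries, 37.3 and 52.6 in Shank3 vehicle and 51.2 and 53.5 in WT libraries. The highest sum was in GSK-LSD1 library 1, and the sums of the other 5 libraries were from 37.3 to 53.5 CPM. Collagen I (Col1a1 and Col1a2 together) stood at 70.9 and 41.0 CPM in GSK-LSD1 libraries, 224 and 337 in Shank3 vehicle and 123 and 39.3 in WT libraries, so its highest libraries were not those of the meningeal sum. Dcn (decorin) had 10.3 and 3.41 CPM in GSK-LSD1 libraries, 4.96 and 5.99 in Shank3 vehicle and 6.09 and 6.97 in WT libraries. Slc6a13, a transporter of the leptomeninges, had 9.37 and 5.38 CPM in GSK-LSD1 libraries, 1.93 and 3.76 in Shank3 vehicle and 5.54 and 6.03 in WT libraries. Col3a1, Lama1 and Col6a1 also had their highest value of all 6 libraries in GSK-LSD1 library 1. So did vessel chains, among them Col4a1 (37.4 CPM), Lamb2 (35.2 CPM), Lama4 (12.4 CPM) and Lama5 (7.72 CPM). Col4a2, Lamb1 and Lamc1 had theirs in WT library 1. The part of meninges in these values was not tested. Of the 13 tested meningeal markers 10 were negative in Shank3 vehicle over WT (median log2 fold change -0.19). In GSK-LSD1 over Shank3 vehicle 12 were positive (median 0.71), and in GSK-LSD1 over WT 13 were (median 0.57). None passed edgeR's test in any comparison. At an unadjusted p under 0.05 there were 1 lower in Shank3 vehicle over WT, 4 higher in GSK-LSD1 over Shank3 vehicle and 2 higher in GSK-LSD1 over WT. In the same order the shares of all tested genes were 14%, 5.7% and 15.7%.

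Other lists were measured beside collagen I in the same way. The 13 endothelial markers summed to 278 and 249 CPM in GSK-LSD1 libraries, 274 and 322 in Shank3 vehicle and 251 and 268 in WT libraries. The 11 pericyte markers summed to 224 and 207 CPM in GSK-LSD1 libraries, 220.1 and 258 in Shank3 vehicle and 187 and 197 in WT libraries. Both sums were highest in Shank3 vehicle library 2. In Shank3 vehicle over WT 10 of 13 endothelial and 7 of 11 pericyte markers were positive. There edgeR called 1 of each higher, Itm2a and Rgs5, beside 0.278% of all tested genes. In GSK-LSD1 over Shank3 vehicle 10 of 13 endothelial markers were negative, and none of either list passed. At an unadjusted p under 0.05 there were 4 endothelial markers and 1 pericyte marker, beside 5.7% of all tested genes. The 5 smooth muscle markers, 3 of them tested, summed to 23.8 and 17.9 CPM in GSK-LSD1 libraries, 20.4 and 23.6 in Shank3 vehicle and 16.5 and 23.1 in WT libraries. The 5 erythrocyte markers summed to 25.4 and 41.7 CPM in GSK-LSD1 libraries, 83.7 and 179 in Shank3 vehicle and 251 and 104 in WT libraries. They were lowest in both GSK-LSD1 libraries, highest in WT library 1 and higher in Shank3 vehicle library 2 than in WT library 2. Collagen I is also the main collagen of bone, and 12 markers of bone-forming cells, 5 of them tested, were added after the values had been seen. They summed to 15.7 and 15.1 CPM in GSK-LSD1 libraries, 11.4 and 16.6 in Shank3 vehicle and 11.0 and 13.8 in WT libraries. Bglap (osteocalcin), a defining gene of that list whose near-identical copies Bglap2 and Bglap3 make its count uncertain, had 0 and 0 reads in GSK-LSD1 libraries, 9 and 34 in Shank3 vehicle and 0 and 3 in WT libraries, and Mepe was at 0 in all libraries. The 5 tested markers of that list did not share the pattern of Bglap: in GSK-LSD1 over Shank3 vehicle 3 of 5 were positive, with a median of 0.03, and Alpl was at log2 fold change 0.56 ± 0.26 SE, edgeR adjusted p = 0.873 (unadjusted p = 0.0456). The part of any of these cell types in the collagen I values was not tested.

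**Figure D5:**
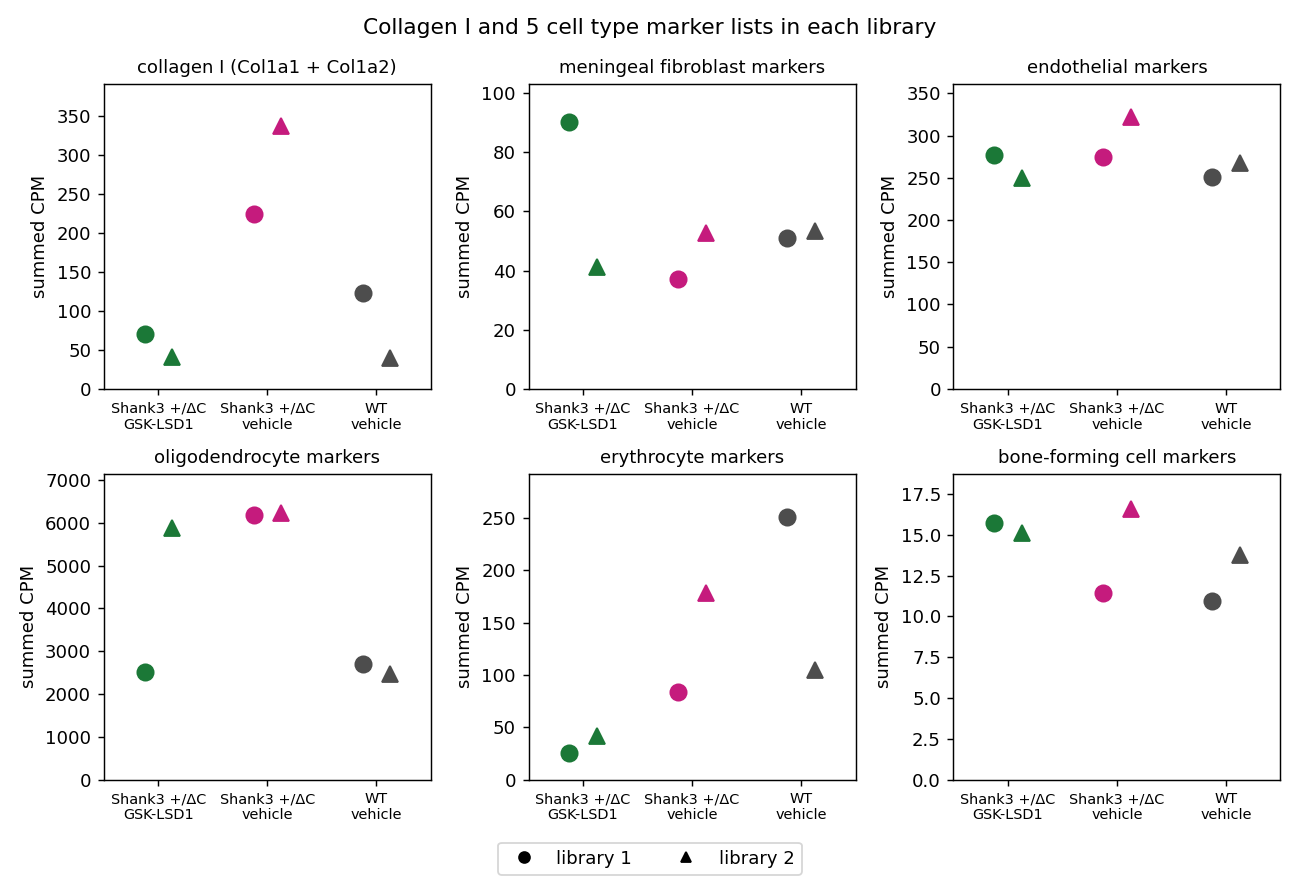
Summed CPM of collagen I (Col1a1 and Col1a2) and of 5 cell type marker lists in each library (circles: library 1, triangles: library 2, axes from 0). Collagen I is highest in both Shank3 vehicle libraries, the meningeal fibroblast sum is highest in GSK-LSD1 library 1 at 90.3 CPM, and the oligodendrocyte sum is high in GSK-LSD1 library 2 and both Shank3 vehicle libraries.

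The genes that make, cut, anchor and bind these proteins were listed alongside. Of all tested genes edgeR called 1.27% in Shank3 vehicle over WT, 0.107% in GSK-LSD1 over Shank3 vehicle and 2.62% in GSK-LSD1 over WT. Of 31 genes of collagen biosynthesis and crosslinking, all tested, 1 fell and 0 rose in Shank3 vehicle over WT, 0 changed in GSK-LSD1 over Shank3 vehicle and 1 fell in GSK-LSD1 over WT. It was Pxdn (peroxidasin), the enzyme that joins collagen IV molecules by sulfilimine bonds, with 21.9 and 28.8 CPM in GSK-LSD1 libraries, 19.7 and 19.5 in Shank3 vehicle and 34.3 and 41.1 in WT libraries. Both groups of Shank3 +/ΔC libraries lay below both WT libraries (log2 fold change -0.95 ± 0.15 SE, edgeR adjusted p = 0.00935 for Shank3 vehicle over WT and log2 fold change -0.58 ± 0.15 SE, edgeR adjusted p = 0.0394 for GSK-LSD1 over WT). The first call was lost without Shank3 vehicle library 1 (-0.97 with adjusted p = 0.0521), and the second without GSK-LSD1 library 1 (-0.40 with adjusted p = 0.201), without WT library 1 (-0.71 with adjusted p = 0.143) and without WT library 2 (-0.45 with adjusted p = 0.226). Loxl1, which crosslinks fibres by lysine oxidation, had 5.05 and 4.50 CPM in GSK-LSD1 libraries, 1.79 and 1.41 in Shank3 vehicle and 2.67 and 2.46 in WT libraries. It was highest in both GSK-LSD1 libraries and did not pass (log2 fold change 1.58 ± 0.31 SE, edgeR adjusted p = 0.0558 over Shank3 vehicle). P3h2, a prolyl hydroxylase of collagen IV, had 1.27 and 1.57 CPM in GSK-LSD1 libraries, 1.20 and 1.68 in Shank3 vehicle and 0.479 and 0.542 in WT libraries, without passing (log2 fold change 1.47 ± 0.52 SE, edgeR adjusted p = 0.194 for Shank3 vehicle over WT).

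Of 18 matrix breakdown genes 16 were tested, and 1 fell and 0 rose in Shank3 vehicle over WT, beside 0.994% of all tested genes called lower. In the other comparisons 0 changed. Timp2, an inhibitor of matrix metalloproteinases, had 165 and 170.5 CPM in GSK-LSD1 libraries, 153 and 149 in Shank3 vehicle and 259 and 195 in WT libraries. It was lowest in Shank3 vehicle libraries (log2 fold change -0.59 ± 0.12 SE, edgeR adjusted p = 0.0302 against WT; log2 fold change -0.44 ± 0.12 SE, edgeR adjusted p = 0.0654 for GSK-LSD1 over WT). Its call was lost without Shank3 vehicle library 1 (-0.61 with adjusted p = 0.135), without Shank3 vehicle library 2 (-0.57 with adjusted p = 0.196) and without WT library 1 (-0.37 with adjusted p = 0.574), and its GSK-LSD1 over WT difference passed without WT library 2 (-0.63 with adjusted p = 0.0112).

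Of 16 collagen and laminin receptors none passed in Shank3 vehicle over WT or in GSK-LSD1 over Shank3 vehicle by edgeR. At an unadjusted p under 0.05 there were 9 and 1, beside 14% and 5.7% of all tested genes. In GSK-LSD1 over WT 1 rose, beside 0.636% of all tested genes. It was Ddr2, a receptor tyrosine kinase for fibrillar collagen, with 15.6 and 12.1 CPM in GSK-LSD1 libraries, 8.78 and 10.2 in Shank3 vehicle and 5.54 and 8.53 in WT libraries. Both GSK-LSD1 libraries were the highest (log2 fold change 0.95 ± 0.22 SE, edgeR adjusted p = 0.0252 for GSK-LSD1 over WT). That call was lost without GSK-LSD1 library 1 (0.74 with adjusted p = 0.124) and without WT library 1 (0.70 with adjusted p = 0.343). Dag1 (dystroglycan), the laminin receptor of astrocyte endfeet, had 103 and 114 CPM in GSK-LSD1 libraries, 101 and 99.0 in Shank3 vehicle and 134 and 121 in WT libraries. It was lowest in Shank3 vehicle libraries without passing (log2 fold change -0.35 ± 0.11 SE, edgeR adjusted p = 0.113 against WT).

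Of 16 basement membrane partners, all tested, 1 rose and 1 fell in Shank3 vehicle over WT and likewise in GSK-LSD1 over WT, the same 2 genes in both. In these 2 comparisons, which share the WT libraries, 1.27% and 2.62% of all tested genes were called. None changed in GSK-LSD1 over Shank3 vehicle, where 2 had an unadjusted p under 0.05, beside 5.7% of all tested genes. Sparc, a collagen-binding protein, had 114 and 106 CPM in GSK-LSD1 libraries, 121 and 137 in Shank3 vehicle and 71.7 and 88.7 in WT libraries. All Shank3 +/ΔC libraries lay above both WT libraries (log2 fold change 0.68 ± 0.12 SE, edgeR adjusted p = 0.0178 for Shank3 vehicle over WT and log2 fold change 0.45 ± 0.12 SE, edgeR adjusted p = 0.0473 for GSK-LSD1 over WT). Fras1, a basement membrane protein of the Fraser complex, had 78.8 and 76.9 CPM in GSK-LSD1 libraries, 75.9 and 73.8 in Shank3 vehicle and 131 and 113 in WT libraries. All Shank3 +/ΔC libraries lay below both WT libraries (log2 fold change -0.71 ± 0.11 SE, edgeR adjusted p = 0.00890 and log2 fold change -0.65 ± 0.11 SE, edgeR adjusted p = 0.00537 in the same 2 comparisons). Without WT library 1 neither gene passed in either comparison, with Sparc at 0.53 with adjusted p = 0.391 and 0.31 with adjusted p = 0.557 and Fras1 at -0.60 with adjusted p = 0.137 and -0.55 with adjusted p = 0.109. In Shank3 vehicle over WT neither passed without Shank3 vehicle library 1 (Sparc 0.76 with adjusted p = 0.0521, Fras1 -0.73 with adjusted p = 0.0521) or without library 2 (Sparc 0.58 with adjusted p = 0.122, Fras1 -0.69 with adjusted p = 0.0677). In GSK-LSD1 over WT Sparc was also lost without GSK-LSD1 library 1 (0.40 with adjusted p = 0.136), GSK-LSD1 library 2 (0.50 with adjusted p = 0.0842) or Shank3 vehicle library 1 (0.45 with adjusted p = 0.0622).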

How the data were processed

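The 6 libraries (stranded total RNA depleted of ribosomal RNA, per the labels' protocols) were deposited as raw read counts per gene symbol, which per the submitters' processing notes come from cutadapt, TopHat2, SAMtools and featureCounts with mm10 (GRCm38); edgeR is also named there. No source used here gives tool versions, the annotation release or the strand setting of the counting. Overlapping genes may therefore share reads. Of the 51 genes 31 overlap another annotated gene and 5 a protein-coding one in GENCODE M21 (GRCm38), the source of positions and exon lengths. The members, lists and tests were chosen with earlier results of these data known.

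With R 4.3.3 and edgeR 4.0.16, genes were filtered by filterByExpr (18705 tested), scaled by TMM and fitted in a robust quasi-likelihood model of 3 groups over 6 libraries (3 residual degrees of freedom, biological coefficient of variation 11.5%), two-sided, with Benjamini-Hochberg adjustment over all tested genes at 0.05. The SE is the log2 fold change over the square root of F. The code was tested on simulated data. DESeq2 1.42.0, limma-voom (limma 3.58.1), other scalings and filters, a 4-library fit, a replicate block and leaving out each library were alternatives. Genes named are those called, the 6 with the smallest p per comparison, the 10 highest per length, the 6 with the widest library differences, textbook chains of meninges and vessels, and from the other lists those called with up to 3 of the smallest p; Col12a1, Col14a1, Serpinh1, Dag1, Dcn, Slc6a13, Bglap, Mepe, Col8a2, Alpl, the called markers of the glial and vascular lists and the low-count collagens of the closing section were added after their values were seen. Some genes that entered the counts and sums are not reported here by themselves. Counts of 3 reads as a floor cover counting error only.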

Additional observations from a re-analysis of the deposited data

How the results depend on the processing

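With 2 libraries per group, calls near the threshold depended on the fit, while no value past the threshold changed sign under the alternatives run. In Shank3 vehicle over WT, where edgeR called 2 collagens or laminins, 0 were called with library size alone, 0 without the robust option, 7 with no low-count filter, 3 by DESeq2, 3 by limma-voom and 5 at an adjusted p under 0.1, and 0 to 5 with a library left out. In GSK-LSD1 over Shank3 vehicle, where it called 0, 2 were called with no filter, 2 by DESeq2, 1 by limma-voom, 1 without the robust option, 1 with only the 4 libraries compared, 2 at 0.1, and 0 to 2 with a library left out. In GSK-LSD1 over WT, also 0, 1 was called with no filter, 1 by DESeq2, 1 (Col11a2) with a replicate block, and 0 to 2 with a library left out. With a library left out, the median log2 fold change of the 51 genes ran from 0.00 to 0.27 in the first comparison, 0.05 to 0.28 in the second and 0.14 to 0.32 in the third. Restricted to a mean of at least 1 CPM, genes over 2-fold between libraries were 1 in the GSK-LSD1, 1 in the Shank3 vehicle and 4 in the WT group, beside 3.16%, 1.93% and 1.91% of all such genes. The labels state no pairing of libraries by replicate number. Correlations of library differences between groups were 0.08, -0.06 and -0.05, which cannot exclude a pairing with a weak effect. The block left 2 and 0 calls in the first 2 comparisons. Genes called among all tested differed as well: 238 in Shank3 vehicle over WT, but 35 with library size alone, 11 without the robust option, 807 with no filter, 590 by DESeq2, 137 by limma-voom, 141 with upper quartile scaling, 524 with 4 libraries, 552 at 0.1 and 6 to 656 with a library left out. Against 20 in GSK-LSD1 over Shank3 vehicle there were 106 with no filter, 35 by DESeq2 and 10 to 83 with a library left out, and against 491 in GSK-LSD1 over WT there were 253 with library size alone, 962 with no filter, 793 by DESeq2, 871 at 0.1 and 6 to 631 with a library left out. The cause of these changes was not tested. Below about 1 CPM counts of a few reads limit what can be seen.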

Other observations

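The least abundant collagens were near the limit of these depths. Col6a5 had 2 and 9 reads in GSK-LSD1 libraries, 4 and 13 in Shank3 vehicle and 2 and 12 in WT libraries, Col4a4 6 and 16 reads in GSK-LSD1 libraries, 9 and 23 in Shank3 vehicle and 4 and 11 in WT libraries, and Col28a1 5 and 12 reads in GSK-LSD1 libraries, 16 and 31 in Shank3 vehicle and 7 and 22 in WT libraries. Col13a1, a collagen of neuromuscular synapses, had 32 and 9 reads in GSK-LSD1 libraries, 10 and 12 in Shank3 vehicle and 9 and 10 in WT libraries. Of the collagens under a mean of 1 CPM, these were the ones that differed over 2-fold between libraries of at least 1 group. Col5a3, Col7a1, Col9a1 and Col24a1 also lay under that mean and did not differ over 2-fold within any group. Col9a1, the third chain of collagen IX, had 13 and 10 reads in GSK-LSD1 libraries, 23 and 13 in Shank3 vehicle and 6 and 7 in WT libraries. Both Shank3 vehicle libraries were above both WT libraries in CPM, at 1.06 and 0.590 CPM in Shank3 vehicle libraries against 0.411 and 0.253 in WT libraries, and the difference did not pass edgeR's test (log2 fold change 1.35 ± 0.72 SE, edgeR adjusted p = 0.418).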
